A study of Mus musculus with 32 samples.

Results

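The genes described here are 10 marker genes of dendritic cell subsets: Clec9a, Xcr1, Batf3, Irf8 and Itgae of the cDC1 subset, Cd209a and Clec10a of the cDC2 and monocyte-derived cells, Zbtb46 and Flt3 of the conventional lineage and its progenitors, and Siglech of plasmacytoid cells. They were chosen by symbol with earlier results of these data known, so their shares beside those of all genes are descriptions only. Each of the 10 symbols matched 1 row among the 55487 genes of the count table. All 10 passed the filter on low counts that left 14903 genes for testing, Cd209a only through libraries on the NASH diet.

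Dendritic cells take up antigen in tissues and present it to T cells. Conventional type 1 cells (cDC1) cross-present antigen of dying cells to CD8 T cells and depend on the transcription factors IRF8 and BATF3, type 2 cells (cDC2) mainly present to CD4 T cells, and plasmacytoid cells are known for type I interferon. All arise from bone marrow progenitors that need the receptor FLT3 and its ligand, and in the liver they lie mostly around the portal tracts, in far smaller numbers than Kupffer cells.

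Messenger RNA of whole mouse liver was sequenced in 32 libraries. Genotype was either wild type (WT) or FAAH S268D, a substitution in the hydrolase FAAH, which degrades fatty acid amides such as anandamide and N-acyl taurines. Both genotypes received 28 weeks of a diet that the series text abbreviates HFFC, without ARA (labelled NASH) or with it (NASH-AA), and the series title names arachidonoyl-taurine, hepatic steatosis and inflammation. The 4 groups were thus WT on NASH, WT on NASH-AA, FAAH S268D on NASH and FAAH S268D on NASH-AA, with 8 libraries each. No group without the HFFC diet was analysed here, so every value comes from livers on it. The sources used here give neither the age, sex or strain of the mice nor how the substitution was made. The labels do not say that the replicates of a group are separate animals, so p-values measure the spread between these libraries, which may be technical in part.

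Total counts ran from 14743005 to 34370032 in 31 libraries, while FAAH S268D NASH replicate 1 held only 3851404. The hepatocyte marker Alb stood between 31335 and 67276 CPM (counts of a gene scaled to library size) in the libraries. Faah itself, whose substitution need not alter its mRNA, stood at 153 ± 15.5 CPM in WT and 186 ± 20.2 CPM in FAAH S268D on NASH (SD, n = 8 each). The log2 fold change was 0.27 ± 0.06 (SE, limma-voom, adjusted p = 0.00677). On NASH-AA it was 0.21 ± 0.06 (SE, limma-voom, adjusted p = 0.104). On both diets all 8 FAAH S268D libraries were above the WT median. The Faah level does not show the substitution itself, so it does not check the labels. Levels are given below as normalised CPM, with the lowest, median and highest of the 8 libraries of a group. Differences are log2 fold changes ± SE from limma-voom over all 14903 genes, NASH-AA minus NASH for diet and FAAH S268D minus WT for genotype, and a gene is called changed at a Benjamini-Hochberg adjusted p under 0.05.

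The sequences just before the start sites are shown for Clec9a, Irf8 and Cd209a, the genes on which the genotype and diet results turn and whose windows hold no annotated untranslated region. RefSeq promoter windows of GRCm38.p6 were found for 8 of the 10 genes, 9 windows in all because Irf8 has 2. Each line gives the 250 bases before the start, 5′ to 3′ on the gene's strand, in lower case throughout because no searched motif matched in them.
Clec9a (chr6:129408612-129408861, plus strand): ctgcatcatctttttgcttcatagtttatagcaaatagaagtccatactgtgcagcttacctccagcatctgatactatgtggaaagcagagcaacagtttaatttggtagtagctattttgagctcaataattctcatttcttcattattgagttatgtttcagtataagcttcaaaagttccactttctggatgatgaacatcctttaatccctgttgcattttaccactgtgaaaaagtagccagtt
Irf8 (chr8:120736108-120736357, plus strand): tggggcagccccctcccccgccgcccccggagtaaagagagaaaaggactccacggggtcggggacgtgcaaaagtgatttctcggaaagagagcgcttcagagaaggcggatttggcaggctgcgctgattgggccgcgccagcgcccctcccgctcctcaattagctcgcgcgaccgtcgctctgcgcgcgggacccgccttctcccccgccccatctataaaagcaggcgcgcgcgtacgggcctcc
Cd209a (chr8:3748985-3749234, minus strand): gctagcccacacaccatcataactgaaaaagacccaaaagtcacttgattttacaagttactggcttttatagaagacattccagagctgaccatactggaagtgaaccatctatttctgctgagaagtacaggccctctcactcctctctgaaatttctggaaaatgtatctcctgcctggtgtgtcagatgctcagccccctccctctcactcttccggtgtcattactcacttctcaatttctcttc
The Clec9a window had 35.6% G and C, the Cd209a window 44.8% and the Irf8 window 67.2%. On both strands of the 9 windows, the AP-1 letters TGANTCA occurred in 1, in Zbtb46 as TGACTCA from 61 to 55 bases before the start, against 6.75% of 32851 promoter windows of the same length. That Zbtb46 window lies inside the longer Zbtb46 gene of the GENCODE annotation. The IRF motif (2.98% of all windows) and the overlapping ETS-IRF motif (2.3%), searched as 1 spacing of their letters each, occurred in 0 of the 9. The absence of a match says only that these letters are not in these windows.

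The Clec9a window bears on how its reads were counted. Clec9a (ENSMUSG00000046080) lies on chromosome 6 from 129408862 to 129424763 on the plus strand, and the gene Clec1b, a receptor of the same lectin family that is known from platelets and Kupffer cells, ends at 129409335 on the same strand. A retained-intron transcript of Clec1b has an exon from 129405107 to 129409335, which covers the window printed above and 184 bases of the first Clec9a exon. Of the 31-base words in Clec9a transcripts, 4.63% also occur in Clec1b. In 27 libraries the deposited Clec9a value was over 0.002 from a whole number, and in each of the 27 the sum with Clec1b was whole within 0.002 (80.271 and 385.729 make 466 in WT NASH replicate 1). Part of the Clec9a count was therefore divided between these genes in the deposited table. Clec1b was singled out after its values were seen.

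Per kilobase of exon, Irf8 was the most abundant member at 2.17 ± 0.755 CPM per kb over the 32 libraries (SD). Clec9a (0.786 ± 0.211), Batf3 (0.744 ± 0.298) and Zbtb46 (0.735 ± 0.129) followed and lay within each other's spread. Cd209a (0.25 ± 0.223), Siglech (0.199 ± 0.065), Clec10a (0.173 ± 0.0702) and Flt3 (0.139 ± 0.077) were lower and also did not differ beyond their spread. Itgae (0.0818 ± 0.0402) and Xcr1 (0.0794 ± 0.0449) stood last, at medians of 8 counts per library. Irf8 rested on a median of 317 counts, Zbtb46 on 146 and Clec9a on 57.5, so these 3 carry the least counting error.

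**Figure D1:**
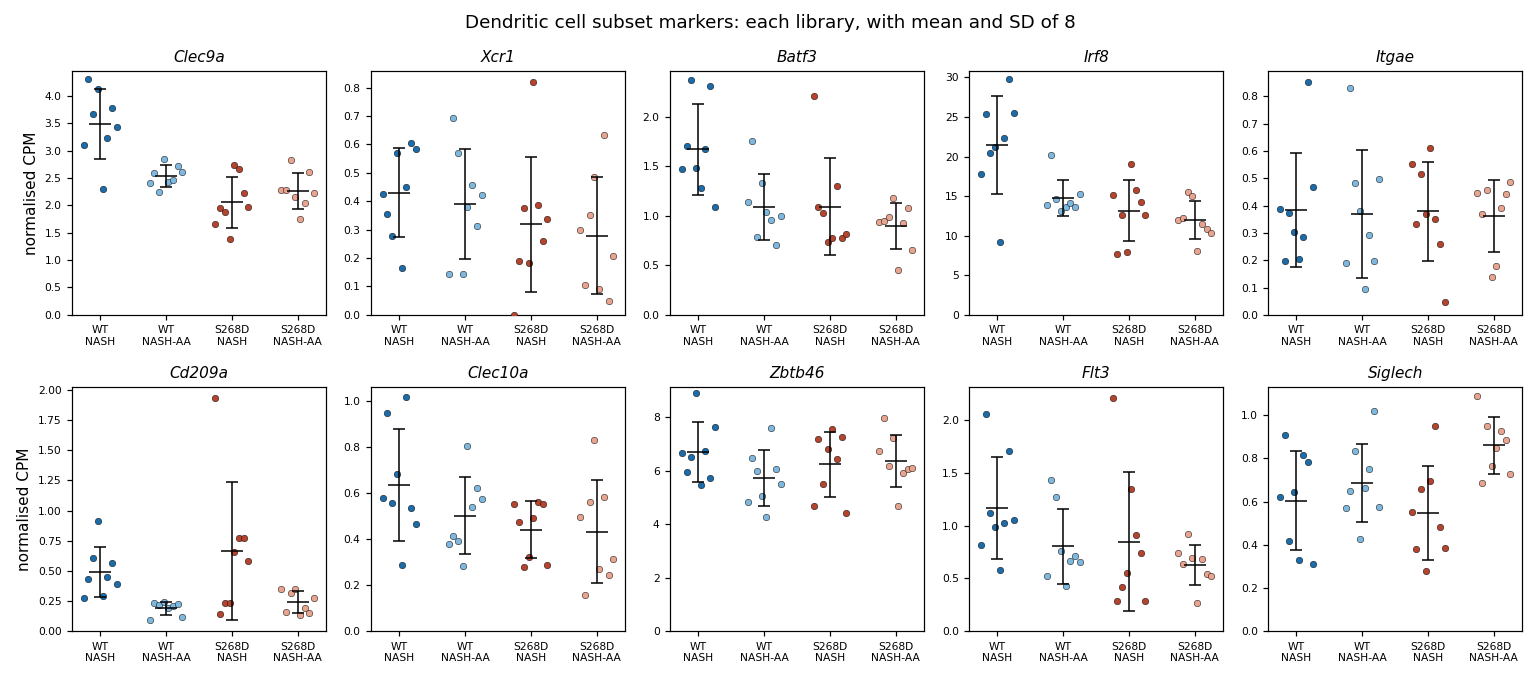
Normalised CPM of each of the 10 genes (vertical axes, each from 0) in the 4 groups, 1 point per library, with the mean and SD of 8. In WT, all 8 NASH-AA libraries lie below all 8 NASH libraries for Cd209a, and the Clec9a, Batf3 and Irf8 means are highest in WT on NASH. The share of all genes with such a separation is not given here.

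Between the genotypes on the NASH diet, 3 members were called and all 3 were lower in FAAH S268D: Clec9a, Batf3 and Irf8, each at about the same size. Over all genes, 9.19% were called in this comparison and 6.3% were called lower, against which 3 of 10 members rests on few genes. The median log2 difference of the 10 members was -0.41, against 0.00 over all genes tested, and 9 of 10 were negative.

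Clec9a encodes DNGR-1, the receptor by which cDC1 sense actin filaments of dead cells. On NASH it ran from 2.31 through a median of 3.55 to 4.31 CPM in WT and from 1.38 through 1.96 to 2.74 in FAAH S268D. All 8 FAAH S268D libraries were below the WT median and 6 were below the lowest WT library, WT NASH replicate 5, so the groups overlapped only through that library. The difference was -0.72 ± 0.13 (adjusted p = 0.001, limma-voom), a fold of 0.607. Its neighbour Clec1b fell by the same amount, -0.72 ± 0.15 (adjusted p = 0.0054), from 16.7 ± 4.53 to 10.3 ± 2.29 CPM (SD, n = 8 each). Across the 32 libraries Clec9a and Clec1b had a Pearson r of 0.752 (Spearman 0.721), 0.515 within groups and 0.703 without the 2 libraries farthest from the Clec1b median. Clec1b ranked 603rd among 11979 genes in likeness to Clec9a, and the part of shared reads in the Clec9a difference was not tested.

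Batf3 is the AP-1 family factor that cDC1 need to keep Irf8 on. In WT on NASH it ran from 1.09 through 1.58 to 2.37 CPM, and in FAAH S268D from 0.735 through 0.925 to 2.21. The highest FAAH S268D value came from the shallowest library, replicate 1, where it rests on 8 counts, and 6 of the other 7 lay below every WT library. Batf3 differed by -0.75 ± 0.20 (adjusted p = 0.0176).

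Irf8 is required by cDC1 and plasmacytoid cells and is also expressed in monocytes, macrophages and B cells. Its WT libraries on NASH ran from 9.18 through 21.8 to 29.7 CPM and the FAAH S268D libraries from 7.73 through 13.5 to 19.1. All 8 FAAH S268D libraries lay below the WT median, but the groups overlapped: WT NASH replicates 5 (9.18) and 1 (17.8) were below the highest FAAH S268D library. The difference was -0.71 ± 0.19 (adjusted p = 0.0176). Without WT NASH replicate 7 or FAAH S268D NASH replicate 4 the calls of both Batf3 (adjusted p up to 0.0597) and Irf8 (up to 0.0692) ended, and without FAAH S268D NASH replicate 2 that of Irf8 ended too. Clec9a was called whichever of the 32 libraries was left out, with adjusted p from 2.74e-05 to 0.00541. Without the shallowest library the differences were -0.71 for Clec9a, -0.80 for Batf3 and -0.71 for Irf8, and all 3 were called. Without WT NASH replicate 5, which was low in leukocyte genes, they were -0.80, -0.79 and -0.87 and were called. With the 2 groups fitted alone all 3 calls ended, at an adjusted p of 0.0508 for Clec9a, 0.0837 for Batf3 and 0.116 for Irf8. By limma-trend the Batf3 call ended as well (adjusted p = 0.063).

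The remaining members of the cDC1 group were not called on NASH. Xcr1, the receptor through which cDC1 meet XCL1-producing T and NK cells, ran from 0.165 through 0.437 to 0.605 CPM in WT and from 0 through 0.298 to 0.818 in FAAH S268D. The 0 was in the shallowest library, where a count of 0 allows up to 0.829 CPM, and the highest value was in FAAH S268D NASH replicate 5. Xcr1 differed by -0.35 ± 0.38 (adjusted p = 0.605), with a 95% interval from -1.13 to 0.42. Itgae, the alpha E integrin CD103 of cDC1 and of tissue-resident T cells, ran from 0.198 through 0.337 to 0.854 CPM in WT and from 0.0481 through 0.36 to 0.613 in FAAH S268D. Its difference was -0.14 ± 0.39 (adjusted p = 0.864), and its interval from -0.92 to 0.65 would hold a change of the size seen in Clec9a.

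Flt3, the growth factor receptor of dendritic cell progenitors, ran from 0.576 through 1.04 to 2.06 CPM in WT and from 0.284 through 0.645 to 2.21 in FAAH S268D. Of the FAAH S268D libraries, 4 of 8 were below every WT library and replicate 1 was above all of them. The difference of -0.79 ± 0.30 was as large as that of the called genes but missed the threshold (adjusted p = 0.0929). Without WT NASH replicate 5 or FAAH S268D NASH replicate 5 it passed, with adjusted p down to 0.029, as it did with sample quality weights (adjusted p = 0.0498). Zbtb46, a repressor that marks conventional dendritic cells and is also found in endothelium, ran from 5.47 through 6.58 to 8.91 CPM in WT and from 4.43 through 6.62 to 7.56 in FAAH S268D. Its difference of -0.06 ± 0.12 (adjusted p = 0.791) has a 95% interval from -0.31 to 0.18, which leaves out the sizes estimated for Clec9a, Batf3 and Irf8.

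Of the type 2 and monocyte-derived markers, Cd209a encodes a DC-SIGN homologue and Clec10a the galactose-binding lectin MGL1. Cd209a on NASH ran from 0.271 through 0.442 to 0.91 CPM in WT and from 0.142 through 0.616 to 1.93 in FAAH S268D. The FAAH S268D libraries spread on both sides of the WT range, with 3 below it and 1, replicate 1 on 7 counts, above it. The fitted difference was 0.00 ± 0.31 (adjusted p = 0.994) although the FAAH S268D mean was the higher, and -0.09 without replicate 1. The 2 ranges of library numbers gave opposite signs, as given below. Clec10a ran from 0.288 through 0.569 to 1.02 CPM in WT and from 0.281 through 0.482 to 0.563 in FAAH S268D. All 8 FAAH S268D libraries were below the WT median, yet the difference of -0.46 ± 0.27 did not pass (adjusted p = 0.285). Clec10a shares sequence with its neighbour Mgl2, and in the 7 libraries where the deposited Clec10a value was over 0.002 from a whole number the sum with Mgl2 was whole within 0.002; Mgl2 was picked after its values were seen.

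Siglech, a sialic acid-binding receptor of plasmacytoid cells and some macrophages, ran from 0.311 through 0.632 to 0.91 CPM in WT and from 0.276 through 0.517 to 0.95 in FAAH S268D. The ranges nearly coincide, and the difference was -0.11 ± 0.24 (adjusted p = 0.82).

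**Figure D2:**
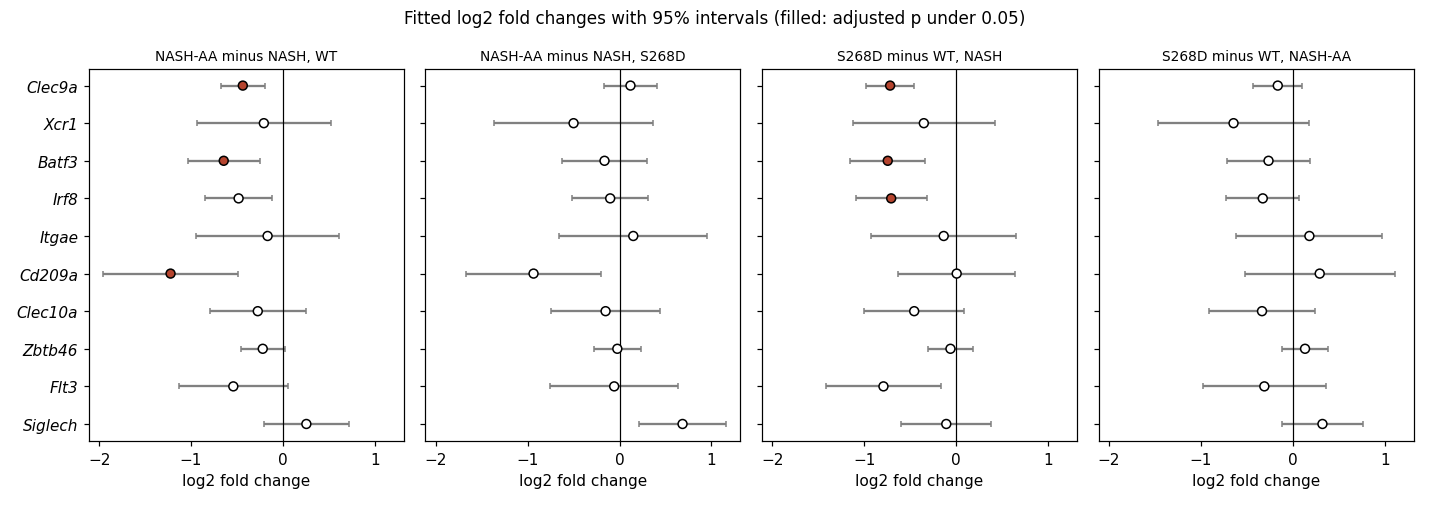
Fitted log2 fold changes (horizontal axes) of the 10 genes in the 4 comparisons of 2 groups, with 95% intervals. Filled points are adjusted p under 0.05: Clec9a, Batf3 and Cd209a for diet in WT, and Clec9a, Batf3 and Irf8 for genotype on NASH.

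In WT, 3 members were called lower on NASH-AA than on NASH: Clec9a, Batf3 and Cd209a, the last of which passed the filter only through libraries on NASH. Of all genes 4.41% were called here and 2.97% were called lower. The members' median difference was -0.36, against 0.01 over all genes, with 9 of 10 negative. This comparison shares the WT NASH libraries with the genotype comparison on NASH, so the values of both are given side by side and no overlap is drawn from them: Clec9a -0.44 and -0.72, Batf3 -0.64 and -0.75, Irf8 -0.48 and -0.71, Flt3 -0.54 and -0.79, Cd209a -1.22 and 0.00.

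Cd209a was the member whose 2 WT diet groups did not overlap. It ran from 0.271 through 0.442 to 0.91 CPM on NASH and from 0.0948 through 0.214 to 0.238 on NASH-AA, and every NASH-AA library lay below every NASH library. Its difference was -1.22 ± 0.36 (adjusted p = 0.0471), a fold of 0.428. These levels rest on 2 to 24 counts per library. The filter needed 0.437 CPM in 8 libraries, and the highest NASH-AA values of Cd209a were 0.238 in WT and 0.347 in FAAH S268D. Cd209a thus passed the filter only through libraries on NASH, where it was higher. Its diet differences in both genotypes, its call and its lack of overlap are therefore descriptions only. The share of all genes tested whose 2 WT diet groups do not overlap is not given here.

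Clec9a in WT on NASH-AA held to a narrow band, from 2.24 through 2.52 to 2.85 CPM, against 2.31 through 3.55 to 4.31 on NASH. All 8 NASH-AA libraries were below the NASH median, and the difference was -0.44 ± 0.12 (adjusted p = 0.0349). Clec1b differed by -0.40 ± 0.15 (adjusted p = 0.0918). Batf3 on NASH-AA ran from 0.708 through 1.02 to 1.76 CPM, with 5 of 8 libraries below every NASH library and replicate 2 alone above the NASH median. It differed by -0.64 ± 0.19 (adjusted p = 0.0492).

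The 3 calls lie close to the threshold. With 1 library left out, the differences ran from -0.52 to -0.39 for Clec9a, -0.74 to -0.54 for Batf3 and -1.33 to -1.08 for Cd209a. The Clec9a call ended when any 1 of 11 libraries was left out, the Cd209a call for 19 and the Batf3 call for 22 of the 32, with adjusted p up to 0.0872, 0.101 and 0.112. None of the 3 was called with the replicate number as a block, the library-number range as a block, without the filter or by limma-trend.

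The other members did not pass for diet in WT. Irf8 ran from 13.1 through 14.02 to 20.2 CPM on NASH-AA, all 8 below the NASH median, and differed by -0.48 ± 0.18 (adjusted p = 0.0969). Without WT NASH replicate 5, whose Irf8 level was 9.18 CPM, that difference passed at an adjusted p of 0.00404. Flt3 ran from 0.427 through 0.687 to 1.43 CPM on NASH-AA and differed by -0.54 ± 0.29 (adjusted p = 0.248). Zbtb46 at 4.27 through 5.76 to 7.62 CPM differed by -0.22 ± 0.12 (adjusted p = 0.251). Siglech was the 1 member with a positive value, 0.25 ± 0.23 (adjusted p = 0.502), at 0.428 through 0.655 to 1.02 CPM. For Clec10a (-0.27 ± 0.26), Xcr1 (-0.21 ± 0.36) and Itgae (-0.17 ± 0.38) the adjusted p ran from 0.528 to 0.824.

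In FAAH S268D, 0 members were called for diet, where 0.0939% of all genes were called. An unadjusted limma-voom p under 0.05 was found for 2 members and for 1845 of the 14903 genes tested. Cd209a ran from 0.134 through 0.236 to 0.347 CPM on NASH-AA, all 8 below the FAAH S268D NASH median of 0.616, and differed by -0.94 ± 0.36 (adjusted p = 0.277). Siglech ran from 0.687 through 0.867 to 1.09 CPM on NASH-AA, all 8 above the NASH median of 0.517, and differed by 0.68 ± 0.23 (adjusted p = 0.22). With sample quality weights the Cd209a difference passed (-1.28, adjusted p = 0.0134), as it did in library numbers 17 to 32 alone (-1.82, adjusted p = 0.0128), while in numbers 1 to 16 it was -0.19. Clec9a at 1.75 through 2.25 to 2.82 CPM differed by 0.12 ± 0.14 (adjusted p = 0.767), with 7 of 8 NASH-AA libraries above the NASH median. Batf3 at 0.448 through 0.946 to 1.18 CPM differed by -0.16 ± 0.23, and Irf8 at 8.06 through 11.7 to 15.5 CPM by -0.10 ± 0.20. The 95% interval of the Clec9a difference, -0.17 to 0.40, leaves out the value of -0.44 estimated in WT. That value has its own error, and the direct test, the interaction given below, was not called (limma-voom, adjusted p = 0.906).

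Between the genotypes on NASH-AA, 0 members were called (0.658% of all genes were). An unadjusted limma-voom p under 0.05 was found for 0 members and for 2316 of the 14903 genes tested. Clec9a differed by -0.16 ± 0.13 (adjusted p = 0.578), Batf3 by -0.27 ± 0.22 (adjusted p = 0.596) and Irf8 by -0.33 ± 0.19 (adjusted p = 0.432). For Irf8, 6 of 8 FAAH S268D libraries were below the lowest WT library on this diet. Siglech was above the WT median in 8 of 8 FAAH S268D libraries, at a difference of 0.32 ± 0.22 (adjusted p = 0.492). Xcr1 ran from 0.0491 through 0.253 to 0.634 CPM in FAAH S268D and from 0.142 through 0.4 to 0.693 in WT, a difference of -0.65 ± 0.40 (adjusted p = 0.458).

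Whether the diet difference itself depended on genotype was tested as an interaction, the diet difference in FAAH S268D minus that in WT. By limma-voom 0 members and 0 of all genes (0.0%) were called, and 628 genes had an unadjusted p under 0.05. The largest member value with such a p was that of Clec9a, 0.56 ± 0.18 (unadjusted p = 0.0047, adjusted p = 0.906). Batf3 stood at 0.48 ± 0.30 and Irf8 at 0.38 ± 0.27, both at an adjusted p of 0.906. So the calls for diet in WT, and none in FAAH S268D, are not shown to differ by genotype.

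**Figure D3:**
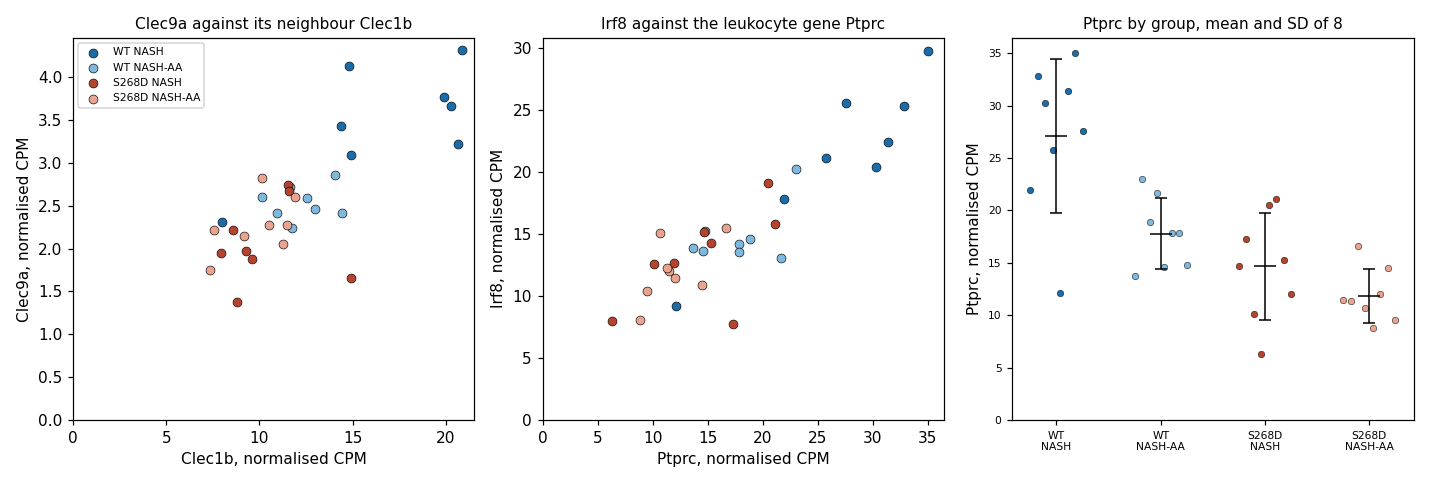
Left, Clec9a against Clec1b; middle, Irf8 against Ptprc, both in normalised CPM with 1 point per library; right, Ptprc by group with mean and SD of 8. Most WT NASH libraries lie toward the upper right, and WT NASH replicate 5 is the lowest of its group in all 4 genes.

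Other cell types moved with these groups. On the NASH diet Ptprc, the pan-leukocyte gene CD45, averaged 27.1 ± 7.34 CPM in WT against 14.7 ± 5.08 with the substitution, and on NASH-AA 17.8 ± 3.37 against 11.9 ± 2.58 (SD, n = 8 per group). It differed by -0.91 ± 0.21 between the genotypes on NASH (adjusted p = 0.00745) and by -0.57 ± 0.20 for diet in WT (adjusted p = 0.0764). On NASH, 7 of 8 monocyte and macrophage markers and 4 of 7 tested T and NK markers were lower in FAAH S268D. Of the 5 B cell markers 0 were called, as were 0 of 4 sinusoidal endothelial and 0 of 4 cholangiocyte markers, while 1 of 4 Kupffer markers was lower, 0 of 4 stellate markers were called and 1 of 5 hepatocyte markers was higher. The summed monocyte and macrophage markers ran from 394 to 964 CPM in WT NASH and from 253 to 533 in FAAH S268D NASH, and the summed T and NK markers from 3.79 to 11.4 and from 3.44 to 7.18. Median sums in the same order were 484 and 290 CPM for Kupffer markers, 320 and 224 for stellate markers and 56203 and 68341 for hepatocyte markers. For diet in WT, 1 of 8 monocyte and macrophage markers was lower and 1 of 5 hepatocyte markers higher. From NASH to NASH-AA in WT the median sums were 755 and 494 CPM for monocytes and macrophages, 484 and 355 for Kupffer cells, 320 and 252 for stellate cells and 56203 and 70052 for hepatocytes. No marker of these lists was at 0 in over 16 libraries, and their part in the members' differences was not tested. In whole-liver RNA, fewer cells of a type and less RNA per cell cannot be told apart.

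Set against Ptprc in the same library, no member was lower in FAAH S268D on NASH. The mean log2 ratio of member to Ptprc counts was higher in FAAH S268D for all 10, by 0.16 for Clec9a, 0.22 for Irf8, 0.25 for Flt3, 0.27 for Batf3, 0.81 for Zbtb46, 0.82 for Siglech and 1.05 for Cd209a. For the first 4 of these the shift is smaller than the SD of the ratio in FAAH S268D NASH (0.33, 0.49, 0.99 and 0.67), and so is that of Cd209a (SD 1.08). For diet in WT, the ratio of Cd209a was lower by 0.66 on the log2 scale (SD 0.51 and 0.27 in the 2 groups) and that of Siglech higher by 0.80 (SD 0.49 and 0.46). Those of Clec9a (0.13), Irf8 (0.09) and Batf3 (-0.05) moved by less than their SD in either group. These ratios are a description without a test. Ptprc itself differed by -0.91 between the genotypes on NASH, a larger fall than that of any member. Higher ratios for all 10 were therefore set by the fall of Ptprc. For diet in WT the ratios likewise include the Ptprc difference of -0.57.

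**Figure D4:**
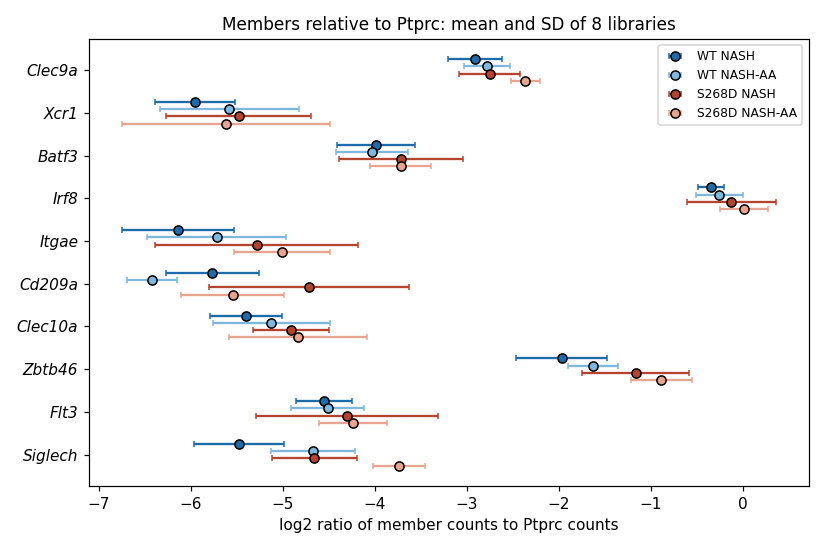
Mean and SD over 8 libraries of the log2 ratio of each gene's counts to Ptprc counts (horizontal axis), by group. The FAAH S268D NASH-AA group, where mean Ptprc was lowest, lies farthest right for Clec9a, Irf8, Itgae, Clec10a, Zbtb46, Flt3 and Siglech. For Cd209a the WT NASH-AA group lies farthest left.

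The further genes of dendritic cells came from 6 lists, 82 symbols without double counting, none of them members. These lists too were chosen with earlier results of these data known. Their counts for genotype on NASH stand beside 6.3% of all genes called lower, and those for diet in WT beside 2.97%. Among cDC1 genes, 4 of 13 tested were lower and 1 higher in FAAH S268D on NASH. The lower ones included Wdfy4, which cDC1 need for cross-presentation (-0.74 ± 0.22), and the integrin Itgb7 (-0.73 ± 0.15), while the lysosomal enzyme Ppt1 was higher (0.35 ± 0.06). Ppt1 was higher on NASH-AA too (0.40 ± 0.06), from 42.7 ± 2.23 to 56.3 ± 4.09 CPM, and lies on chromosome 4 as Faah does.

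Among cDC2 genes, 3 of 9 tested were lower in FAAH S268D on NASH: Itgax (-1.68 ± 0.42), the integrin CD11c, Sirpa (-1.04 ± 0.22) and Clec12a (-1.03 ± 0.21), all 3 also expressed by macrophages. The cDC2 genes Clec4a4, Cd209e and Fcer1a were at 0 in over 16 libraries and were not tested. Of the plasmacytoid genes 4 of 11 were lower, among them the nucleic acid sensors Tlr9 (-1.01 ± 0.24) and Tlr7 (-0.83 ± 0.22) and the inhibitory receptor Lair1 (-0.92 ± 0.22). Siglech, the plasmacytoid member, was not among the called genes. In the same comparison 7 of 8 monocyte and macrophage markers were lower. Their part in the differences of all these lists, also those given below, was not tested.

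Of the genes of mature dendritic cells, 8 of 15 tested were lower in FAAH S268D on NASH. The costimulatory genes Cd40 (-1.08 ± 0.24) and Cd86 (-0.84 ± 0.18) and the NF-kB subunit Relb (-0.87 ± 0.19) had the smallest unadjusted p. Of the growth factors and ligands, a list that also holds receptor subunits, 6 of 8 tested were lower, receptor subunits among them. In this list Ccl4 stood at -2.38 ± 0.47, Ccl5 at -1.55 ± 0.37 and Csf1 at -0.45 ± 0.10. Flt3l, the ligand of Flt3, was at 5.28 ± 1.42 CPM in WT and 4.4 ± 1.39 in FAAH S268D on NASH (SD, n = 8 each) and differed by -0.19 ± 0.15 (adjusted p = 0.46). Xcl1, the ligand of Xcr1, failed the filter at 0.136 to 0.242 CPM on average. Of the transcription factors of these cells, 4 of 13 were lower, with Spi1 at -0.80 ± 0.18 and Ikzf1 at -0.82 ± 0.21. The lists' medians on NASH ran from -0.18 (transcription factors) to -0.83 (plasmacytoid genes), against 0.00 over all genes. For diet in WT the genes called lower were 1 of 13 for cDC1, 2 of 9 for cDC2, 2 of 11 for plasmacytoid cells, 2 of 15 for mature cells, 0 of 8 for growth factors and ligands and 3 of 13 for transcription factors. For diet in FAAH S268D 0 were called, and on NASH-AA only Ppt1.

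The members did not all vary together. Over the 32 libraries the 45 pairs of members had a median Pearson r of 0.293 in log2 CPM, from -0.091 (Clec10a with Itgae) to 0.82 (Clec9a with Irf8), and 11 pairs were over 0.5. For Clec9a and Irf8 the Spearman value was 0.755, r within groups 0.714 and r without the 2 libraries farthest from the Clec9a median 0.773. Irf8 and Flt3 followed (r = 0.767, Spearman 0.824, within groups 0.71). Low counts limit these values for the rare members, and all points share library depth and normalisation.

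Outside the members, the genes most like Clec9a over the 32 libraries were Slfn5 (r = 0.923), Ifit2 (0.914) and Lair1 (0.913). Those most like Irf8 were Csf2rb2 (0.953), Parvg (0.947) and Evl (0.936), and those most like Flt3 were Lsp1 (0.849), Lxn (0.84) and Slc1a5 (0.829). For Batf3 they were Akr1b10 (0.813), Dram1 (0.807) and Ifi30 (0.807), and for Cd209a Synpo2 (0.784), Npdc1 (0.771) and Spry2 (0.743). The rest had weaker nearest genes: Clec10a Tmem273 (0.714), Zbtb46 Ezh1 (0.71), Xcr1 Id4 (0.681), Siglech Dkk3 (0.62) and Itgae Mterf1a (0.578). These are descriptions of 32 libraries that include the group differences.

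Library numbers in the labels split each group into a lower range (1 to 16) and a higher range (17 to 32). For the genotype on NASH, Clec9a differed by -0.95 (adjusted p = 0.0148) in the lower range and -0.45 (adjusted p = 0.607) in the higher, Irf8 by -0.87 (0.0375) and -0.49 (0.64), and Batf3 by -0.80 (0.0703) and -0.68 (0.607), each a limma-voom adjusted p. The direction was the same in both ranges and no member was called in the higher. For diet in WT the values were -0.63 and -0.27 for Clec9a, -0.53 and -0.67 for Batf3, and -1.42 and -1.05 for Cd209a, with no call in either range.

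**Figure D5:**
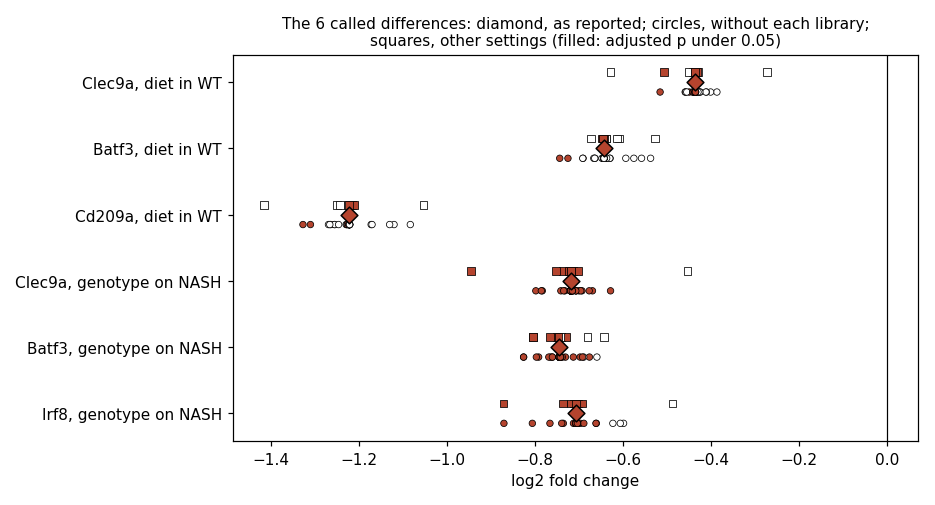
Log2 fold changes of the 6 called differences as reported (diamonds), without each of the 32 libraries (circles) and under the other settings (squares), filled where adjusted p is under 0.05. All values stay below 0, and the open circles of the diet comparison in WT are the libraries whose loss ended a call.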

How the data were processed

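Whole mouse liver RNA was extracted with TRIzol and sequenced as polyA libraries made with a Tecan Universal Plus mRNA-seq kit, per the labels' protocols. The submitters' processing notes name STAR 2.7.10, Trim Galore 0.6.7 and UMI-tools 1.1.2 and the build GRCm38. How genes were counted, with which annotation and whether by strand is not given in the sources used here, so reads of overlapping or antisense genes (Gm26597 over Flt3, Haspin over Itgae, Gm20388 over Irf8) cannot be told apart.

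For the 32 libraries the authors deposited gene-level estimated counts in 1 table, unscaled. Of its 1775584 cells, 52450 did not read as plain numbers because a spreadsheet had turned decimals into digit groups, clock times or day fractions. These deposited values, recorded with a unit other than counts, were turned back by fixed rules. A second original was possible for 0.27% of cells, and the one nearer the gene's depth-scaled median was taken; among the members this touched 1 cell, of Clec10a. Values were rounded to whole counts.

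Weights came from limma-voom (limma 3.58.1, R 4.3.3) with a prior count of 0.5 and TMM factors from own code, trimming 30% of log ratios and 5% of mean levels. Genes needed the CPM of 10 counts in a median library in 8 libraries and 15 counts in total. The fit over all 32 libraries had a mean for each group, with 4 contrasts of 2 groups and the interaction, adjusted over 14903 genes. The fit was tested on simulated counts. Ratios to Ptprc used counts plus 0.5. Likeness is Pearson's r of log2 CPM, over genes with a mean of at least 1 CPM, predicted genes left out.

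The members and all lists were chosen with earlier results of these data known. Named genes are the 10 members; up to 3 genes per further list with the smallest unadjusted p for genotype on NASH; Ptprc, Flt3l and Xcl1; the nearest genes of each member; and markers of other cell types. Alternatives were other size factors, no or a stricter filter, blocks for replicate or library number, each library-number range, the 2 groups alone, sample quality weights, limma-trend, the other reading of doubtful cells and leaving out each library. Depth ran from 3851404 to 34370032 counts, and in the shallowest library the rarest members have a few counts or none.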

Additional observations from a re-analysis of the deposited data

Results flagged for a closer look

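Among the 40 sets of 8 libraries (10 genes in 4 groups), 5 held a library far from the other 7, by the gap to its nearest neighbour as a share of the range; chance alone gives about 1 in 20. Batf3 was at 2.21 CPM and Cd209a at 1.93 CPM in FAAH S268D NASH replicate 1, the shallowest library, where they rest on 8 and 7 counts. Xcr1 was at 0.818 CPM in FAAH S268D NASH replicate 5, on 20 counts. Irf8 was at 20.2 CPM in WT NASH-AA replicate 2, and Itgae at 0.854 CPM in WT NASH replicate 7.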

How the results depend on the processing

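For diet in WT, the 3 members called became 0 without the filter, with the replicate block, with the library-number block, in library numbers 1 to 16 alone, in 17 to 32 alone and by limma-trend, and 5 with sample quality weights; leaving out 1 library gave 0 to 4. For genotype on NASH, the 3 members became 0 in library numbers 17 to 32 alone and in the 2 groups alone (where 73 genes were called in all, and Clec9a had an adjusted p of 0.0508); 2 were called by limma-trend, without Batf3, and 2 in library numbers 1 to 16, also without Batf3, and sample quality weights gave 4, with Flt3 added; leaving out 1 library gave 1 to 4, with 1 without WT NASH replicate 7 or FAAH S268D NASH replicate 4. For diet in FAAH S268D, 0 became 1 (Cd209a) in library numbers 17 to 32 alone and with sample quality weights. For genotype on NASH-AA and for the interaction the count was 0 under every alternative run. The causes were not tested. The ranges and the 2 groups alone have fewer libraries, but the genes called did not fall in every comparison. In the 2 groups alone they went from 657 to 1090 for diet in WT and from 98 to 615 for genotype on NASH-AA. They went from 1370 to 73 for genotype on NASH and from 14 to 4 for diet in FAAH S268D. Without the filter the median of all 31628 genes moved to 0.16 for genotype on NASH. No called difference changed sign, and 50 of 1845 uncalled values did. Replicate numbers share no stated source: of 48 same-numbered pairs 13 had a correlation of deviations over 0.1, and 5 of 32 libraries were closest to their own number. With the replicate block, the genes called went from 657 to 17 for diet in WT, from 1370 to 961 for genotype on NASH, from 98 to 63 on NASH-AA, and from 14 to 8 for diet in FAAH S268D. The stricter filter left 4 of the 10 members to test. Genes at a median of 8 counts, such as Xcr1 and Itgae, have intervals wider than most differences seen here.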
